A study of Homo sapiens with 8 samples.

Results

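The genes described here build, crosslink, contract and regulate the actin cytoskeleton. They were taken from a list of 40 gene symbols, and a gene counted as measured when the platform annotation gave a row of the array table that symbol and no other. This held for 36 of the 40, out of 14271 genes with such a row among 18495 rows. ROCK1, TAGLN and ACTA2 lay on rows that also carry another gene, and no row named FLNA in the annotation used here. The arrays came from PNT2, an immortalized line of human prostatic epithelium grown in serum-containing medium. The siESRP group holds 4 samples given small interfering RNA against both ESRP1 and ESRP2, epithelial proteins that regulate splicing. The siGFP group holds 4 control samples given small interfering RNA against green fluorescent protein. All 8 samples are of 1 cell line, and the knockdown is partial: the labels put it close to 80% by quantitative RT-PCR. No label states that the 4 samples of a group were grown separately. The p-values therefore rest on the variation among these 8 arrays, part or all of which may be technical. In such bulk RNA, fewer cells that express a gene and less of its RNA per cell cannot be told apart. Whether altered splicing shifted the intensity of any row was not tested.

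Actin filaments grow by addition of monomers that profilin delivers and formins and VASP help to add, and are taken apart by cofilin. Small GTPases switch these steps on and off: RHOA acts through the ROCK kinases and the formin DIAPH1, while CDC42 and RAC1 drive protrusions at the cell edge. Myosin II pulls on filaments that alpha-actinin and filamin crosslink and that tropomyosins, calponins and caldesmon decorate, which gives epithelial cells their tension at junctions and stress fibres. The transcription factor SRF, with the cofactor MRTFA that binds actin monomers, controls many of these genes.

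ESRP1 had intensities of 568, 499, 660.3 and 599 in siESRP, against 2232, 2527, 2617 and 2379 in siGFP, and the row shared by ESRP2 and NFATC3 averaged 148 ± 27.4 in siESRP and 531 ± 33.4 in siGFP (SD, n = 4 each). Both rows fell (limma adjusted p = 6.58e-05 and 0.000336). Median deposited intensity lay between 233 and 286 per array, and Spearman correlations between arrays were 0.978 or higher. KRT8 and KRT18, the keratins of simple epithelia, averaged 6964 and 5991 in siESRP and 6689.6 and 4917 in siGFP, so both groups carried epithelial markers. Over the 10 measured epithelial markers, 3 rose and 1, ESRP1, fell. Of 8 measured smooth muscle markers, limma called 0, and 0 had an unadjusted p under 0.05. Their summed intensity was 392 to 449 over the siESRP arrays and 354 to 439 over the siGFP arrays, with MYH11 at 37.2 in siESRP and 38.3 in siGFP, DES at 50.5 and 55.3, and MYOCD at 17.7 and 16.7. Fibroblast markers summed to 1411 to 1599.9 in siESRP and 1242 to 1447 in siGFP (1 of 9 rose and 1 fell). Most of that sum was FBLN1, which rose, at 1068 in siESRP and 789 in siGFP. Of the 9, 6 were lower in siESRP, among them COL1A1, which fell (182 and 252). Leukocyte markers summed to 345 to 425 in siESRP and 446 to 495 in siGFP (1 of 8 fell). The part of these markers in the results was not tested.

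Of the 36 measured actin genes, 9 fell in siESRP, 3 rose and 24 did not pass (limma, adjusted p under 0.05 over all rows). The 9 that fell were MYL9, DIAPH1, RND1, RND3, MYH9, SRF, VASP, CDC42EP3 and ACTN1. The 3 that rose were EPS8, MYH10 and PFN2. Called genes made up 33.3% of the 36, against 20.2% of all rows. Most actin genes are well expressed, and among the 9448 genes whose higher group mean was at least 100 the share was 29.5%, close to the 32.4% (11 of 34) of actin genes above that level. Genes that fell made up 25% of the 36, against 9.31% of all rows and 13.7% of the brighter genes, and genes that rose made up 8.33%, against 10.9% and 15.8%. The list was chosen with earlier results of these data known. The shares in this paragraph therefore cannot show that actin genes changed more often than others. With a change of at least 1.5-fold as well, 7 of the 36 (19.4%) were called, 5 lower and 2 higher, against 7.08% of all rows and 9.59% of the brighter genes. Over all rows 2.4% were that much lower and 4.68% that much higher, and 3.3% of the brighter genes were that much lower, beside 13.9% of the 36. The median log2 difference of the 36 genes was -0.04, beside -0.02 over all rows, so the middle of the list lay near that of the array. The groups did not overlap for 16 of the 36, 44.4%, against 24.6% of all rows and 35.6% of the brighter genes. All intensities below are quantile normalized and all differences are siESRP minus siGFP on the log2(value + 1) scale. Intensities of different rows are not compared, because probes differ in brightness.

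**Figure D1:**
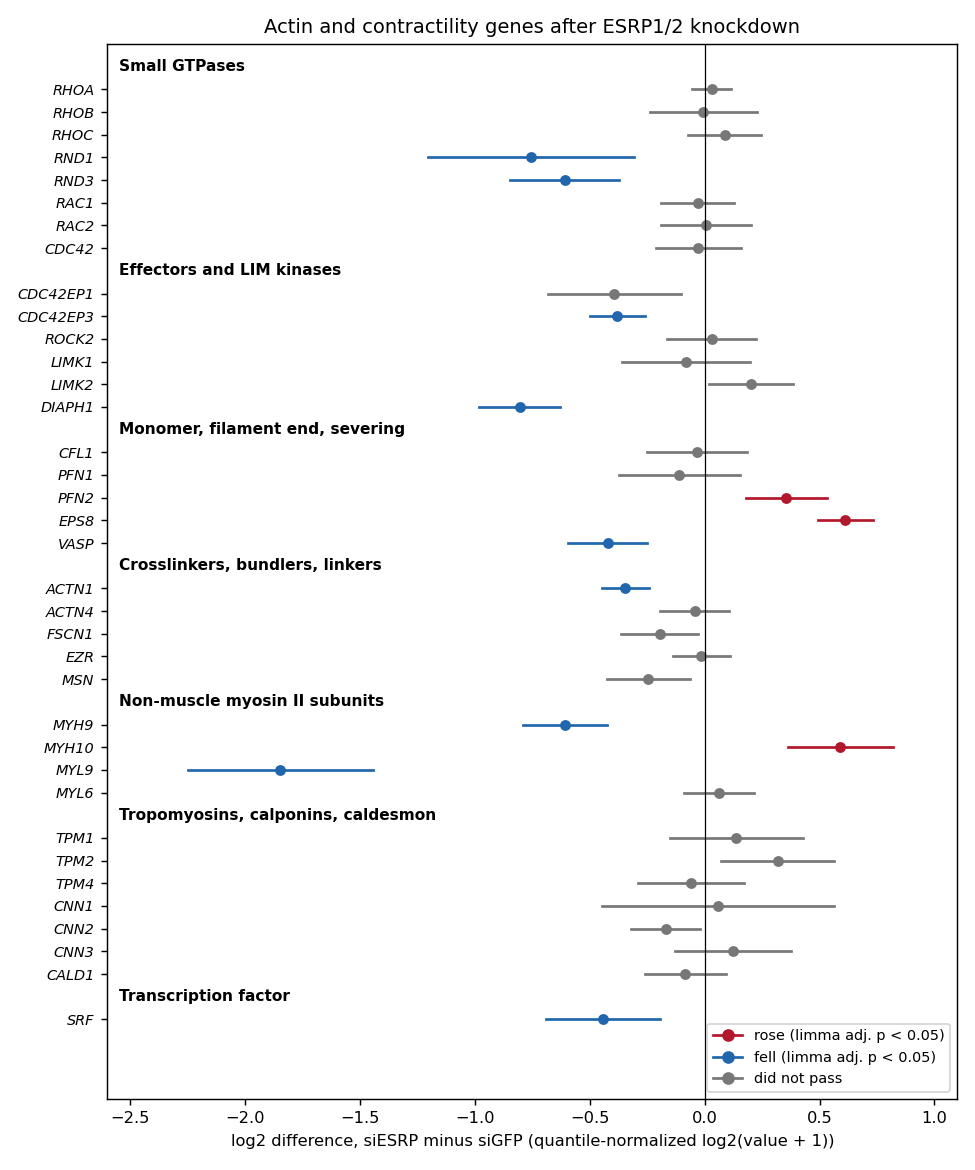
Log2 difference, siESRP minus siGFP, of each of the 36 measured actin genes, grouped by role, with the limma 95% interval as a line (4 arrays per group). MYL9 lies farthest from 0, at -1.85, and the 7 thin-filament genes lie between -0.17 and 0.32 without a call.

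Among the 8 small GTPases of the list the atypical proteins RND1 and RND3 fell, and no call was made for the other 6. RND3, which opposes RHOA signalling by binding ROCK1, had 2186, 1926, 1904 and 2234 in siESRP, against 3523, 2786, 3418 and 2892 in siGFP. The highest siESRP array was below the lowest siGFP array, and RND3 fell 1.53-fold (log2 difference -0.61 ± 0.10 SE, adjusted p = 0.00648). On the arrays as deposited its log2 difference was -0.60 with adjusted p = 0.105. RND1, a related GTPase, had 53.8, 59.3, 35.8 and 43.5 in siESRP, against 73.5, 78.9, 103.7 and 69.5 in siGFP. These dim values do not overlap and RND1 fell (adjusted p = 0.0310), but its siESRP mean of 48.1 is under 50, so no fold is given. Its call ended without siESRP replicate 1, 3 or 4 or without siGFP replicate 1, 2 or 3, with adjusted p between 0.0506 and 0.0800.

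The other 6 GTPases had log2 differences between -0.03 and 0.09 and limma called 0 of them, with 0 at an unadjusted p under 0.05. RAC1, which drives lamellipodia, had 6183, 5694, 6170.4 and 6160.0 in siESRP, against 6498, 5679, 6746 and 5851 in siGFP. CDC42, which drives filopodia and polarity, had 5719, 5339, 6141 and 6141 in siESRP, against 5328, 6572, 6028 and 5879 in siGFP. The groups overlapped for both, with log2 differences of -0.03 for each (95% interval -0.19 to 0.13 for RAC1 and -0.21 to 0.16 for CDC42). RHOA, the GTPase that turns on contraction, averaged 4728 ± 124 in siESRP and 4628 ± 64.9 in siGFP (log2 difference 0.03, 95% interval -0.05 to 0.12). RHOB, which acts on endosomes, averaged 593 ± 46.2 in siESRP and 598 ± 72.0 in siGFP. RHOC averaged 2696 ± 93.5 in siESRP and 2544 ± 211 in siGFP, and RAC2, best known from blood cells, averaged 570.5 ± 47.2 in siESRP and 568 ± 44.9 in siGFP. RAC1 and RAC2 are close paralogues, as are RHOA, RHOB and RHOC, and how far their probes cross-hybridize was not tested.

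Of 6 measured effectors and kinases downstream of RHOA and CDC42, 2 fell and 0 rose. DIAPH1, the formin that RHOA opens to elongate unbranched filaments, had 1174, 1091, 1270.3 and 1257 in siESRP, against 2138, 1952, 2298 and 1986 in siGFP. Every siESRP array was far below every siGFP array. DIAPH1 fell 1.75-fold (-0.80 ± 0.07 SE, adjusted p = 0.000658). CDC42EP3, an effector of CDC42 that binds septins, had 875, 852, 896 and 892 in siESRP, against 1137, 1155, 1223 and 1066 in siGFP. The siESRP arrays lay within a narrow range below all controls, and CDC42EP3 fell (-0.38 ± 0.05 SE, adjusted p = 0.00265, and 0.132 on the arrays as deposited). Its relative CDC42EP1 averaged 741 ± 104 in siESRP and 971 ± 111 in siGFP without overlap, but did not pass (-0.39, adjusted p = 0.0645). That gene passed with median scaling (0.0441), without siESRP replicate 3 (0.0403), with the dim rows left out (0.0360), with a trended robust fit (0.0304) and with array weights (0.0312).

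The kinases between RHOA and cofilin showed no call. ROCK2, which phosphorylates myosin light chain and the LIM kinases, averaged 2840.3 ± 277 in siESRP and 2776 ± 166 in siGFP (log2 difference 0.03). LIMK1, which inactivates cofilin, averaged 269.7 ± 15.5 in siESRP and 287 ± 43.4 in siGFP (-0.08). LIMK2 averaged 803 ± 43.7 in siESRP and 700.2 ± 67.1 in siGFP (0.20, adjusted p = 0.121). Without siGFP replicate 1 the LIMK2 difference was 0.26 with adjusted p = 0.0329.

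Among 5 proteins that act on monomers and filament ends, 2 rose and 1 fell. EPS8, which caps and bundles filaments and links growth factor receptors to RAC, had 1604, 1565, 1543 and 1683 in siESRP, against 1022, 1076, 986 and 1098 in siGFP. All 4 siESRP arrays exceeded all controls by a wide margin, and EPS8 rose 1.53-fold (0.61 ± 0.05 SE, adjusted p = 0.000456). PFN2, a profilin, had 2324, 2176, 2497 and 2446 in siESRP, against 1734, 1958, 2001 and 1696 in siGFP. It rose 1.28-fold without overlap (0.36 ± 0.08 SE, adjusted p = 0.0164). The PFN2 call ended with median scaling (0.33, adjusted p = 0.0757) and on the arrays as deposited (0.35, adjusted p = 0.208). VASP, which keeps filament ends growing, had 404, 397, 399 and 472 in siESRP, against 592, 529, 538 and 578 in siGFP. It fell 1.34-fold (-0.42 ± 0.07 SE, adjusted p = 0.00762, and 0.0874 on the arrays as deposited), with siESRP replicate 4 above the other 3. CFL1, the main cofilin, averaged 4579 ± 389 in siESRP and 4692 ± 472 in siGFP (-0.03), and PFN1, the general profilin, averaged 4120.0 ± 543 in siESRP and 4433 ± 430.4 in siGFP (-0.11). Neither passed.

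Of 5 measured crosslinkers, bundlers and membrane linkers, 1 fell and 0 rose. ACTN1, the alpha-actinin of stress fibres and adhesions, had 3261, 3478, 3235 and 3442 in siESRP, against 4312, 4279, 4082 and 4364 in siGFP. These values were tight and well apart, and ACTN1 fell 1.27-fold (-0.34 ± 0.04 SE, adjusted p = 0.00219, and 0.130 on the arrays as deposited). ACTN4, the other non-muscle alpha-actinin, averaged 4996 ± 221 in siESRP and 5154 ± 378 in siGFP (-0.04). FSCN1, or fascin, which bundles filaments in filopodia, averaged 1228 ± 114 in siESRP and 1403 ± 49.4 in siGFP (-0.20, adjusted p = 0.0993). It passed without siESRP replicate 4 (-0.26, adjusted p = 0.0172). The ERM proteins join filaments to the plasma membrane. Of these, EZR averaged 3881 ± 213 in siESRP and 3917 ± 128 in siGFP (-0.01). MSN averaged 2020 ± 191 in siESRP and 2387 ± 116 in siGFP without overlap (-0.24, adjusted p = 0.0672), and passed without siESRP replicate 2 (-0.30, adjusted p = 0.0383) and with a trended robust fit (0.0404).

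Of 4 myosin II genes, 2 fell and 1 rose. MYL9, a regulatory light chain of smooth muscle and non-muscle myosin II whose phosphorylation starts contraction, had 166, 202, 119.6 and 126 in siESRP, against 503, 586, 520.3 and 561 in siGFP. The highest siESRP array was far below the lowest siGFP array. MYL9 fell 3.60-fold (-1.85 ± 0.17 SE, adjusted p = 0.000651), the 5th lowest log2 difference of the 9448 brighter genes. MYL6, the essential light chain that pairs with it, averaged 2106 ± 49.5 in siESRP and 2022 ± 166 in siGFP (0.06, 95% interval -0.09 to 0.21). The regulatory light chains MYL12A and MYL12B, named after their values were seen, averaged 7342 and 6940.5 in siESRP and 6888 and 6592 in siGFP and did not pass. MYL12A reached adjusted p = 0.0376 with median scaling, higher in siESRP (log2 difference 0.20).

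The 2 heavy chains on the list moved in opposite directions. MYH9, the heavy chain of non-muscle myosin IIA, had 986, 1032, 852 and 1078 in siESRP, against 1474, 1521, 1441 and 1555 in siGFP. MYH10, the heavy chain of myosin IIB, had 772, 797, 735 and 821 in siESRP, against 441, 589.6, 495 and 559 in siGFP. Neither gene's groups overlapped. MYH9 fell 1.52-fold (-0.61 ± 0.08 SE, adjusted p = 0.00229) and MYH10 rose 1.51-fold (0.59 ± 0.10 SE, adjusted p = 0.00624). MYH9, MYH10, MYL9, DIAPH1 and EPS8 were the 5 of the 12 called genes that passed under all 15 alternative normalizations, fits and left-out arrays.

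**Figure D2:**
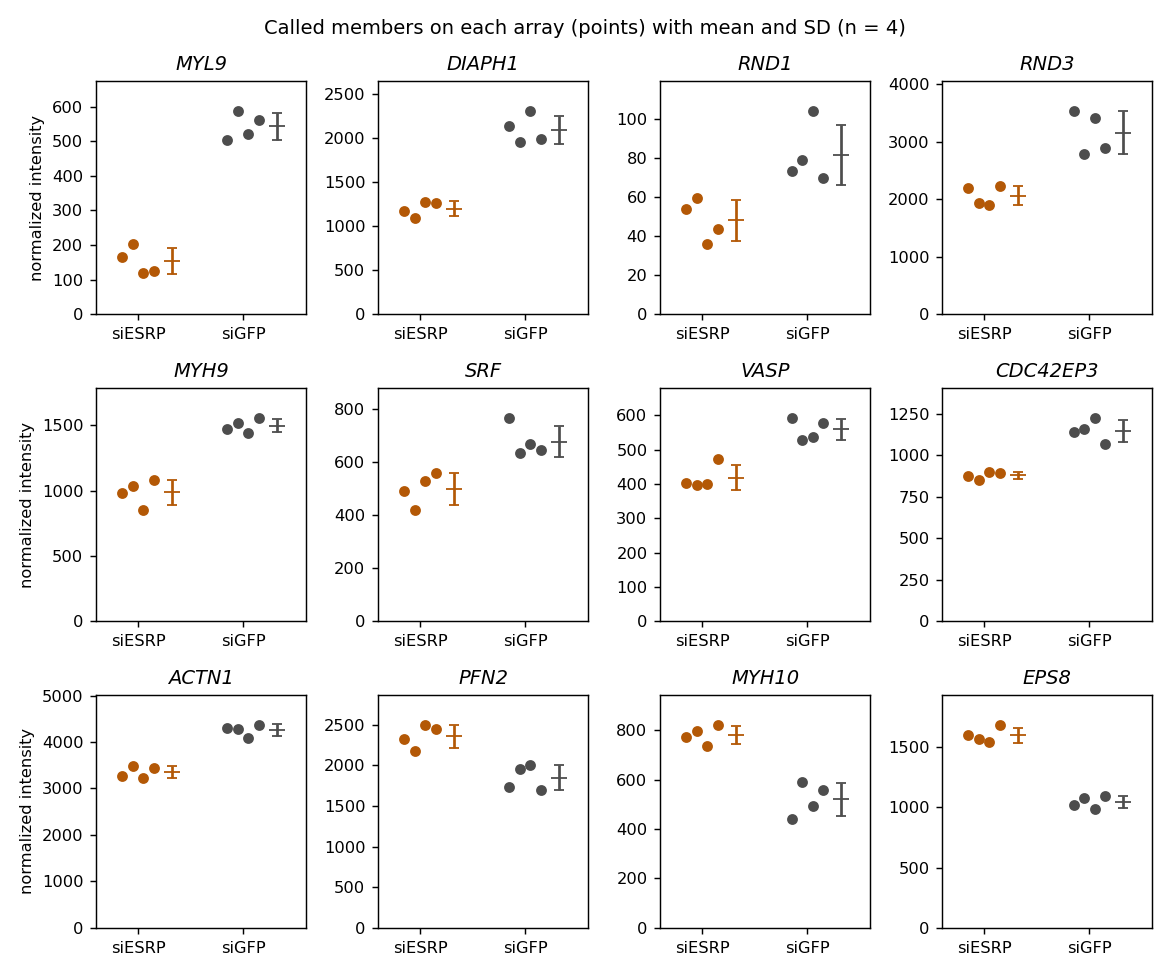
Quantile-normalized intensity of the 12 called actin genes on each array (points), with the mean and SD of the 4 arrays beside them; each panel starts at 0. In all 12 panels the siESRP and siGFP points do not overlap, with EPS8, MYH10 and PFN2 higher in siESRP and the other 9 lower.

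The thin-filament proteins showed no call: limma called 0 of the 7 measured, and 2 had an unadjusted p under 0.05. Tropomyosins wrap filaments and set which myosins can bind. TPM1 averaged 2321 ± 184 in siESRP and 2126 ± 345 in siGFP, and TPM4 averaged 2715 ± 294 in siESRP and 2821 ± 228 in siGFP. TPM2 averaged 399 ± 39.3 in siESRP and 320.3 ± 37.7 in siGFP without overlap (0.32, adjusted p = 0.0755), and passed without siGFP replicate 2 (0.38, adjusted p = 0.0484). No calponin, a family that binds actin and slows myosin, was called. CNN1, the smooth muscle form, was dim, at 62.6 ± 14.97 in siESRP and 59.8 ± 12.6 in siGFP (95% interval of the log2 difference -0.45 to 0.56). CNN2 averaged 1375 ± 88.8 in siESRP and 1546 ± 81.6 in siGFP without overlap (-0.17, adjusted p = 0.110), and CNN3 averaged 3850 ± 215 in siESRP and 3559 ± 504 in siGFP (0.12). CALD1, or caldesmon, averaged 1116 ± 94.6 in siESRP and 1180.3 ± 62.1 in siGFP (-0.08).

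The log2 ratio of related rows was compared between the groups within each array, for 15 pairs chosen after their values were seen. The ratio of MYH9 to MYH10 fell by 1.20 on the log2 scale (95% interval -1.41 to -0.98), and that of MYL9 to MYL6 fell by 1.91 (-2.38 to -1.43). The ratio of ACTN1 to ACTN4 was lower by a log2 difference of -0.30 (-0.43 to -0.18). Against RHOA, the ratio of RND3 had a difference of -0.64 (-0.88 to -0.40), and that of RND1 was also lower, with no size given because RND1 is dim. In these 5 pairs all 4 siESRP arrays lay below all 4 siGFP arrays. Each holds a gene already called above, so this is no independent support for those calls. Their exact two-sided permutation p was 0.0286, the smallest that 4 against 4 arrays can give, and 0.0857 after adjustment over the 15 pairs, so none passed the corrected threshold. With that smallest p, 5 pairs of 15 could not pass however far apart their groups lay. The adjusted value therefore decides nothing about these pairs. The other 10 pairs had exact permutation p of 0.0571 or more, and the intervals of 8 of them included 0, the exceptions being PFN2 over PFN1 (0.0046 to 0.93) and TPM2 over TPM4 (0.02 to 0.73).

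**Figure D3:**
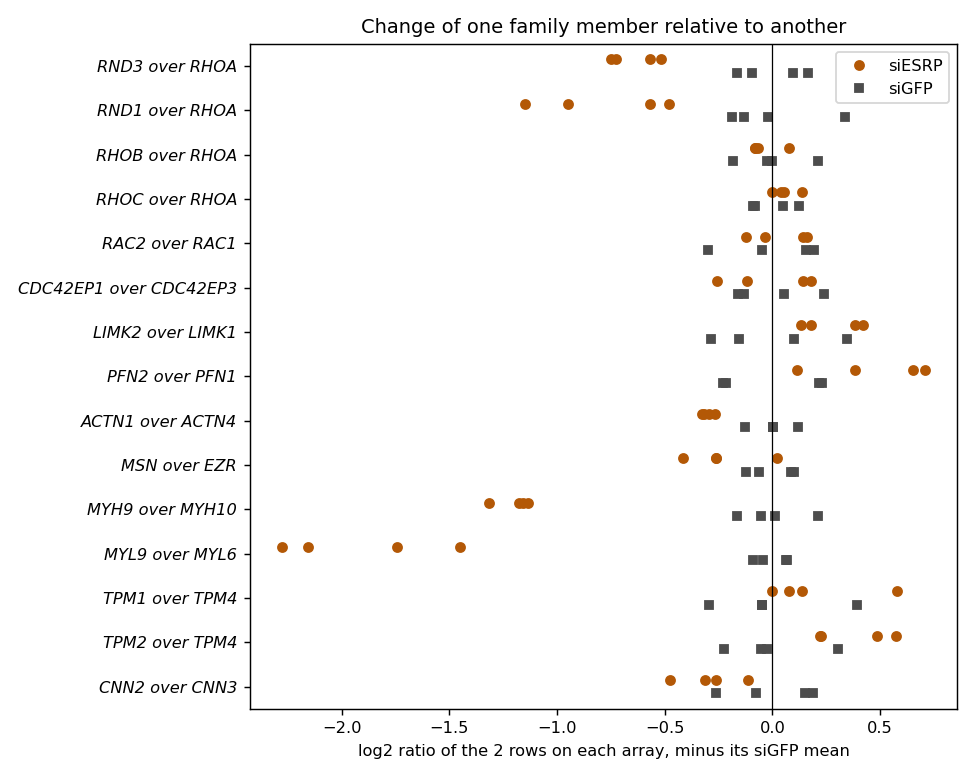
Log2 ratio of 2 related rows on each array, with the mean siGFP ratio subtracted, for 15 gene pairs; circles are siESRP arrays and squares siGFP arrays. The siESRP circles of MYH9 over MYH10, MYL9 over MYL6, ACTN1 over ACTN4, RND3 over RHOA and RND1 over RHOA all lie left of the siGFP squares.

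SRF itself fell. It had 490.6, 420.3, 529.9 and 559.6 in siESRP, against 766, 635, 667 and 644 in siGFP, with no overlap between the groups. The fall was 1.36-fold (-0.44 ± 0.10 SE, adjusted p = 0.0250). This call was less firm than most: it ended on the arrays as deposited (adjusted p = 0.149) and without siESRP replicate 1 (0.0660) or siGFP replicate 1 (0.0563), 3 (0.0563) or 4 (0.0507). The CArG box is the DNA element that SRF binds, a run of A and T bases between CC and GG. A search of both strands of the RefSeq promoters (GRCh38.p14, 300 bases each, 250 before and 50 after a gene's start) found it in 454 of 35116 promoters, 1.29%, and in 438 of 27305 genes, 1.6%. The called genes MYL9, RND1, EPS8 and PFN2, and the uncalled FSCN1, RAC1 and RAC2, had no promoter among these and were not searched. Of the 29 measured actin genes with a promoter there, 6 had a CArG box: SRF, RND3, ACTN1, ROCK2, CNN2 and TPM4. The first 3 fell in siESRP and the other 3 had log2 differences of 0.03, -0.17 and -0.06 without a call. The promoters of the 3 that fell are shown to place the boxes, in capitals, relative to the start site that follows base 250. SRF is shown from chr6:43171019-43171318 (plus strand), RND3 from chr2:150487646-150487945 (minus strand) and ACTN1, for 1 of its several listed starts, from chr14:68977517-68977816 (minus strand).
SRF: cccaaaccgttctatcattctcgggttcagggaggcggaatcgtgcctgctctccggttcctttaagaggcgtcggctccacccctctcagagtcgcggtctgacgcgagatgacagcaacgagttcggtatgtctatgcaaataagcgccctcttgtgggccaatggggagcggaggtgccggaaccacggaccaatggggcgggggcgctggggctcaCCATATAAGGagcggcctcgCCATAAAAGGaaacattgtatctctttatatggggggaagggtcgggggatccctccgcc
RND3: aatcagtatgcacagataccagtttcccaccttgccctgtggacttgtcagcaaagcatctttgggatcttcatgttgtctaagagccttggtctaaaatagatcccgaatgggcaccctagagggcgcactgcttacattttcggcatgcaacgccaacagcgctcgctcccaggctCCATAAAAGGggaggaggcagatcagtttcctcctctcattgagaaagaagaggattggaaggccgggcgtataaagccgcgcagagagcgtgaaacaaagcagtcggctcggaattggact
ACTN1: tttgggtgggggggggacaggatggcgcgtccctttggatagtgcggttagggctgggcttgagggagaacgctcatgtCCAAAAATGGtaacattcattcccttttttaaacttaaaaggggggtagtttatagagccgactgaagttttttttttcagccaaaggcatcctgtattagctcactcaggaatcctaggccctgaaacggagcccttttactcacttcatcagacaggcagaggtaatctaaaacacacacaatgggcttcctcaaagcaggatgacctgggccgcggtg
SRF carried 2 boxes, which began 30 and 10 bases before the start shown, RND3 had one 72 bases before it and ACTN1 one 171 bases before it. From another listed start of RND3 the same box lay 100 bases upstream. The promoter of another listed start of SRF held no box. The boxes of the genes without a call, read on the gene's strand, were as follows.
ROCK2: CCTTAAATGG
CNN2: CCTTATAAGG
TPM4: CCAAATAAGG
A match describes the letters and not binding. A gene was counted if any of its listed promoters matched. Genes with several listed starts had more sequence searched, and the shares of genes were not matched for this. The hexamer GGAATG, the core of the TEAD motif, was in the promoters of 7 of the 29 genes (ROCK2, PFN1, ACTN1, MYH9, MYH10, CNN3 and CALD1), against 16.7% of all genes. The AP-1 motif TGANTCA was in 3 (ACTN4, EZR and CALD1), against 9.37%. Among the 8 called genes with a promoter entry, 3 held a CArG box, 3 held GGAATG and 0 held TGANTCA.

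The 3 listed genes on shared rows cannot be told apart from their partners there and are not counted above. The row of TAGLN, which encodes the actin-binding protein transgelin, and PCSK7, a protease gene, had 60.4, 70.1, 65.9 and 54.6 in siESRP, against 337, 363, 325 and 306 in siGFP. This row was lower in all 4 siESRP arrays (log2 difference -2.39 ± 0.09 SE, adjusted p = 3.70e-05). No fold is given, since the siESRP values are dim and their height above background is not known. A separate row of PCSK7 alone averaged 403 ± 26.6 in siESRP and 374 ± 36.7 in siGFP (0.11, adjusted p = 0.424). The row of ACTA2, the smooth muscle actin, and FAS-AS1, an antisense RNA of FAS, had 259.9, 302, 220.0 and 250.75 in siESRP, against 50.8, 62.8, 64.5 and 67.5 in siGFP. It was higher in all 4 siESRP arrays (log2 difference 2.05 ± 0.12 SE, adjusted p = 0.000139), with the same limit on the dim siGFP values. FAS, the death receptor gene beside ACTA2, averaged 1004 ± 203 in siESRP and 349 ± 46.9 in siGFP on its own row and rose 2.85-fold (adjusted p = 0.00141). The row of ROCK1 and the pseudogene ROCK1P1 averaged 652 ± 86.4 in siESRP and 723 ± 159 in siGFP and did not pass (-0.13, adjusted p = 0.681). With these 3 rows counted, an alternative chosen after the data were seen, 14 of 39 rows were called, 10 lower and 4 higher. Over the whole array 20.2% of rows were called, and 29.5% of the brighter genes. Of the 8 smooth muscle markers given above, 5 averaged under 50 in both groups, so a change in them may not have been detectable.

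The wider actin machinery was followed with 10 further lists that hold 254 genes, of which 202 had a row of their own, and 8 of the lists are described below. Of the 202 genes, 31 rose and 19 fell (24.8%, beside 20.2% of all rows), with a median log2 difference of 0.02. A higher group mean of at least 100 was reached by 169 of the 202. Among all genes at that level 29.5% were called, so the 24.8% lies between these shares. On the arrays as deposited 17 rose and 6 fell.

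Among regulators of actin dynamics, 3 of 25 rose and 4 fell. GSN, or gelsolin, which severs and caps filaments, averaged 934 ± 52.7 in siESRP and 446 ± 24.2 in siGFP, 2.09-fold higher (adjusted p = 0.000115). CAP2, a cyclase-associated protein that recycles monomers, averaged 1288 ± 110.0 in siESRP and 582 ± 35.3 in siGFP, 2.21-fold higher. The barbed-end capping protein CAPG rose 1.61-fold, and TWF1, or twinfilin, which binds monomers and ends, averaged 1182 ± 157 in siESRP and 2205 ± 144 in siGFP, 1.88-fold lower. The other 3 that fell were DSTN, CORO1C and ENAH, with log2 differences of -0.30, -0.42 and -0.41. ENAH, a relative of VASP, is also a reported splicing target of the ESRPs. Its call ended without siESRP replicate 1 or siGFP replicate 1, 3 or 4, with adjusted p between 0.0541 and 0.0662. With median scaling its adjusted p was 0.0506. On the arrays as deposited DSTN, CORO1C and ENAH did not pass (adjusted p = 0.131, 0.102 and 0.186).

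Of 11 other formins and nucleators, 3 rose and 1 fell. The formin DIAPH3, a relative of DIAPH1, averaged 796 ± 29.98 in siESRP and 1112 ± 94.5 in siGFP and fell 1.39-fold (adjusted p = 0.00373). SPIRE1 and FHDC1 rose 1.42-fold and 1.36-fold, and FMNL2 averaged 1301 in siESRP and 998 in siGFP (log2 difference 0.38, adjusted p = 0.0141, and 0.0606 with median scaling). FHDC1 lost its call without any of the 4 siESRP arrays or siGFP replicate 2, 3 or 4 (adjusted p between 0.0508 and 0.102). On the arrays as deposited SPIRE1, FHDC1 and FMNL2 did not pass (adjusted p = 0.0765, 0.158 and 0.187). Of 9 Arp2/3 genes, ARPC2, a core subunit of the complex that branches filaments, rose 1.31-fold. ARPC2 did not pass on the arrays as deposited (adjusted p = 0.116). WIPF1 fell with both means under 50 (19.8 in siESRP and 27.8 in siGFP). The WIPF1 call ended without siESRP replicate 1, 2, 3 or 4 or siGFP replicate 1, 2 or 3 (adjusted p between 0.0808 and 0.117).

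Of 26 other myosin genes and light chain regulators, 7 rose and 2 fell. The unconventional myosins MYO5A, MYO5B and MYO9B rose 1.74-fold, 1.34-fold and 1.25-fold, and MYO1D fell 1.83-fold, averaging 872 ± 55.5 in siESRP and 1598 ± 74.9 in siGFP. MYO9B did not pass on the arrays as deposited (adjusted p = 0.0825). The myosin phosphatase subunits PPP1R12A and PPP1R12C, named after their values were seen, went opposite ways: PPP1R12A, which targets the phosphatase to myosin, was higher in siESRP (log2 difference 0.41, adjusted p = 0.00671) and PPP1R12C was lower (-0.51, adjusted p = 0.00727). Of 32 other crosslinkers, LIM proteins and membrane linkers, 7 rose and 3 fell. PLS1, an epithelial filament bundler, rose 1.45-fold, and the LIM proteins PDLIM4, FHL3 and PDLIM1 rose 1.67-fold, 1.42-fold and 1.23-fold. On the arrays as deposited PLS1 and PDLIM1 did not pass (adjusted p = 0.0909 and 0.0561).

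Limma called 0 of 17 other CDC42 and RAC effectors and 0 of 11 other tropomyosins, calponin-family proteins and actins, of which 4 and 3 had an unadjusted p under 0.05. ACTB, the main cytoplasmic actin, averaged 8158 in siESRP and 8341 in siGFP (-0.03). ACTG1 averaged 6388 in siESRP and 5418 in siGFP (0.24, adjusted p = 0.101) and passed with a trended robust fit (0.0479) and array weights (0.0370).

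Among 22 measured SRF cofactors and established targets, 4 were called higher and 2 lower. MRTFA, the cofactor that binds actin monomers, averaged 422 in siESRP and 575 in siGFP (-0.44, adjusted p = 0.0188, and 0.0576 without siESRP replicate 1). Its call also ended on the arrays as deposited (0.0690) and with the replicate number as a block (0.0738). VCL, or vinculin, which ties actin to adhesions, averaged 1220.4 ± 109 in siESRP and 1585 ± 79.3 in siGFP and fell (log2 difference -0.38, adjusted p = 0.0125). The immediate-early genes EGR1 and FOS, which SRF controls together with ternary complex factors, rose 2.28-fold and 1.67-fold. EGR1 averaged 1281 ± 168 in siESRP and 559.7 ± 29.8 in siGFP (adjusted p = 0.000401). ELK3, one of those ternary complex factors, rose 1.59-fold. The LIM protein FHL2 had a log2 difference of 0.49 (adjusted p = 0.0130, 0.0797 with median scaling and 0.180 on the arrays as deposited).

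**Figure D4:**
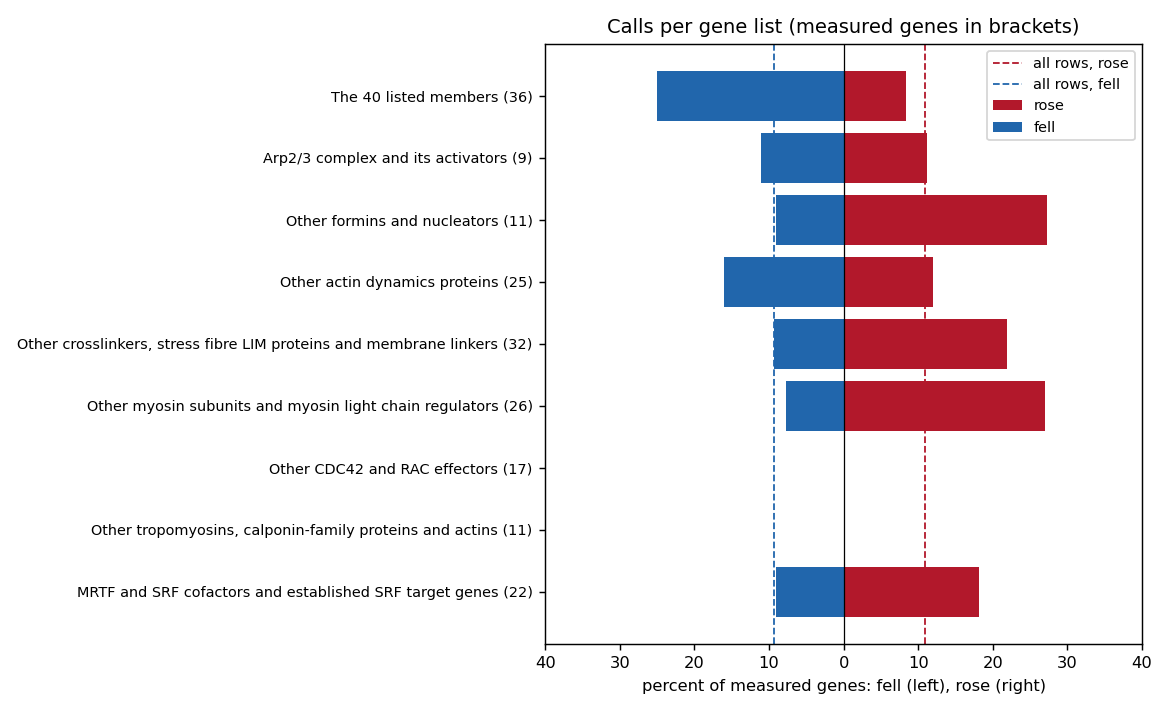
Percent of measured genes that fell (left) and rose (right) in siESRP for the actin genes of the main list and 8 further lists, with the number of measured genes in brackets; dashed lines mark the same shares over all rows, 9.31% and 10.9%. The main list has 25% falling and 8.33% rising, and no call was made in the lists of CDC42 and RAC effectors and of other tropomyosins and actins.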

How the data were processed

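The authors deposited 1 table of linear intensity values for 18495 transcript clusters, the array's gene-level rows, on 8 Affymetrix exon arrays. Each sample started from 1 µg of RNA, freed of ribosomal RNA before labelling, per the labels' protocols. How background, probe summary and scaling were handled is not given in the sources used here. Between 2.7% and 4.02% of values per array lie below 0 and array medians differ by up to 0.295 in log2, so arrays were quantile normalized, values below 0 set to 0 and log2(value + 1) taken. None of the 36 genes had a value at that floor. A gene-level row does not measure exon use.

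Groups came from sample titles. All 8 arrays were fitted with limma 3.58.1 (R 4.3.3), lmFit and eBayes, without covariates, as a two-sided test. Calls used Benjamini-Hochberg p-values over the whole table, under 0.05. Each of the 36 genes had 1 row. Symbols came from GEO's platform annotation (14577 rows with 1 symbol, 2849 with several, 1069 with none). Of the single-symbol rows, 14550 matched RefSeq by Entrez ID. Called genes changed at least 1.3-fold with means of at least 50, SRF, and the 2 uncalled genes with the highest means were to be given array by array, and 3 further called genes are given likewise. From each further list up to 4 called genes with the smallest p are named, and others after their values were seen. Members and lists were chosen with earlier results of these data known. Permutation tests used scipy 1.17.1. Tested on simulated data with 18495 rows, the fit found 55 of 100 planted 1.5-fold changes, 85 of 100 planted 2-fold changes and 14 rows with none planted. All changes were planted in brighter rows, with independent normal noise. Far fewer rows were changed there than the 20.2% called in the data, so these rates need not hold for the real arrays. Same-numbered arrays of the groups had deviations correlated between -0.268 and 0.154, so the numbers were not taken as pairs. Arrays with different numbers had correlations from -0.346 to 0.51. The highest was siESRP replicate 1 with siGFP replicate 3, and what these arrays share was not tested. The number of arrays limits the precision. Results for 2 of the further gene lists are not reported here.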

Additional observations from a re-analysis of the deposited data

Results flagged for a closer look

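Dixon's test at 95% compares the gap between an extreme array and its nearest neighbour with the range of its 4 arrays. It picked out 8 of 138 sets of 4 values, where chance gives about 1 in 20, or 6.9. In siESRP, RAC1 was low in replicate 2 (gap over range 0.955), VASP high in replicate 4 (0.892), TPM2 high in replicate 4 (0.843) and TPM4 low in replicate 3 (0.899). Among the further genes, GSN was high in siESRP replicate 2 (0.87), TWF1 low in siESRP replicate 3 (0.847), MYO9B high in siESRP replicate 2 (0.9) and MYO5B low in siGFP replicate 3 (0.908). For VASP the array that stood apart, at 472, was the one nearest to the siGFP values.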

How the results depend on the processing

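Over 15 alternatives per gene (14 for WIPF1 and PPP1R14A, which the filter on dim rows removed), none of the actin genes or further genes followed changed direction while past the threshold, and 10 uncalled actin genes changed sign without passing. The number of called actin genes was 12, and 10 to 13 with any single array removed. It was 6 on the arrays as deposited (2 higher, 4 lower), where the calls of RND1, EPS8, DIAPH1, MYH9, MYH10 and MYL9 stayed, and 7 with at least 1.5-fold. The number of called rows, 3729, was 2719 to 3793 with any single array removed. It was 1673 on the arrays as deposited, 1808 at adjusted p under 0.01 and 1309 with at least 1.5-fold. Called genes of the further lists, 50, were 38 to 50 with any single array removed and 23 on the arrays as deposited. Of the 22 further genes named by rule in the lists described, 14 passed under every alternative. Median scaling moved the median log2 difference of all rows to -0.11 and that of the actin genes to -0.05, with 10 called lower and 2 higher.

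With the replicate number as a block, 2292 rows, 33 further genes and 9 actin genes were called. RND1, PFN2 and SRF did not pass there (adjusted p = 0.115, 0.0666 and 0.0661). Of the 8 arrays, 1 correlated best with its own number. The table used gives no detection call, so how far dim rows such as RND1, CNN1 and the low group of the TAGLN and ACTA2 rows stand above background is not known.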
